A study of Mus musculus with 61 samples.

Results

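Three-dimensional expression maps of the mouse brain were built from 61 arrays, each of which measured RNA from a slab of brain 1 mm thick. The 3 slabs at the caudal end of the coronal series, C1, Co1 and Co2, named for the medulla and the posterior cerebellum, are described here against the other 26 of the 29 coronal slabs. They were chosen by position alone. C1 was the first fraction of the C series, and Co1 and Co2 were the first 2 fractions of the Co series, both cut from posterior to anterior. C1 came from 1 mouse and Co1 and Co2 from another, and all 6 mice of the study were 8-week-old male C57BL/6J animals, perfused with RNAlater and frozen in embedding compound. A fraction pooled 200 consecutive sections of 5 µm, and the Co brain was cut at a slightly oblique angle. The S and So brains were cut sagittally and the H and Ho brains horizontally. The 3 caudal fractions were compared with all 26 other coronal fractions, and with the 6 that follow them directly (C2 to C4 and Co3 to Co5, called the next fractions), always with the series as a block.

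The medulla is the lowest part of the brainstem and runs on into the spinal cord. It holds the cranial motor and sensory nuclei and the nuclei that control breathing, blood pressure and swallowing, and it is rich in glycinergic inhibition and in long myelinated axons. Its cells keep the Hox code, the combination of homeobox transcription factors that assigned rostrocaudal identity to the embryonic hindbrain and spinal cord, in which genes of low paralog number reach far forward and those of high paralog number stay near the cord. The cerebellum lies dorsal to it and is dominated by granule cells and Purkinje cells.

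Signals were scaled to the 75th percentile of each array, so a level of 0 on the log2 scale is a spot as bright as that percentile. Probes well above background made up 64.2% to 65.8% of all probes on the caudal arrays and 61.5% to 73.0% on the other coronal arrays. A gene was called when its adjusted p in limma was under 0.05. Against the 26 other fractions 1665 of 15124 genes were higher (11.0%) and 971 were lower (6.42%). Against the 6 next fractions 3941 of 13950 genes were higher (28.3%) and 2813 were lower (20.2%), and the median difference of all genes tested was 0.08 in both comparisons. Counted by probe, 9.02% were higher and 6.34% lower than the rest, and 22.4% and 23.8% against the next fractions. The caudal difference itself differed between the Co and C brains for few genes, 1 of 15081 higher in Co (0.00663%) and 9 lower (0.0597%), or 0.0402% and 0.135% of probes. Fractions of 1 brain are not independent animals, so these p-values measure the spread among slabs of 2 brains. The C series and the Co series were scanned on different days, and C1 shared its slide with C2 to C4, as Co1 and Co2 did with Co3 and Co4. In such bulk slabs fewer cells of a type and less RNA per cell cannot be told apart.

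Markers of the medulla were present throughout the caudal slabs, and those of the cerebellum were low beside the slabs ahead of them. Of 13 medulla and caudal hindbrain markers, 12 were well above background on all 3 arrays. The summed level of these markers, with the 75th percentile set to 1, was 17.4 in C1, 15.6 in Co1 and 17.5 in Co2, against 3.66 to 12.2 in the next fractions and 0.328 to 2.74 in the remaining 20. Spinal cord markers summed to 6.60, 6.86 and 4.62, against 0.0436 to 1.28 in the next fractions. Both sums were above those of every other coronal fraction. Cerebellar markers summed to 59.3 in C1, 32.1 in Co1 and 102 in Co2, below the range of 263 to 302 in the next fractions, and in C1 and Co1 within the range of 19.9 to 67.0 in the remaining fractions. The highest of the remaining fractions was Co6, directly ahead of the next fractions. Granule cell markers Gabra6, Cbln3 and Neurod1 read 0.37, -1.99 and -2.63 in C1, against medians of -3.53, -5.32 and -3.65 in the remaining fractions. In Co1 they read -2.25, -4.34 and -4.82. The sums thus do not decide the cerebellar part of the name for C1 and Co1.

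Co1 stood apart from C1 and Co2. It carried forebrain genes, whose 5 markers summed to 4.84 in Co1 against 0.853 in C1 and 1.19 in Co2, still below the 15.7 to 59.8 of the 20 remaining fractions. Crym, a marker of forebrain neurons here, read -1.83 in C1, 1.19 in Co1 and -1.16 in Co2, and Dlx1, Dlx2, Tbr1 and Fezf2 were well above background on Co1 alone of the 3. Choroid plexus markers also summed higher in Co1, to 1.15 against 0.344 in C1 and 0.369 in Co2. The 4 skeletal muscle markers summed to 0.590 against 0.347 and 0.351. Both Co1 sums lay within the range of the 20 remaining fractions, 0.324 to 8.71 and 0.560 to 0.988. Co1 was the lowest of the 3 in cerebellar genes. Cbln3, a granule cell gene, read -1.99, -4.34 and -0.39 in C1, Co1 and Co2. Among the transcripts that stood highest in Co1 were Olfr1176, Oas1g, Psg22, Apoa4 and Olfr1014, and these 5 were well above background on Co1 alone of the 3 arrays. Those furthest below in Co1 were Sycp1, Gabra6, Neurod1, Cbln3, Slc28a2 (-4.41, -8.28 and -4.75) and Slc4a7 (4.91, -2.64 and -2.66), and Slc4a7 differed between the C and Co arrays rather than within Co. Many of the list counts below are therefore also given with single caudal arrays left out.

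**Figure D1:**
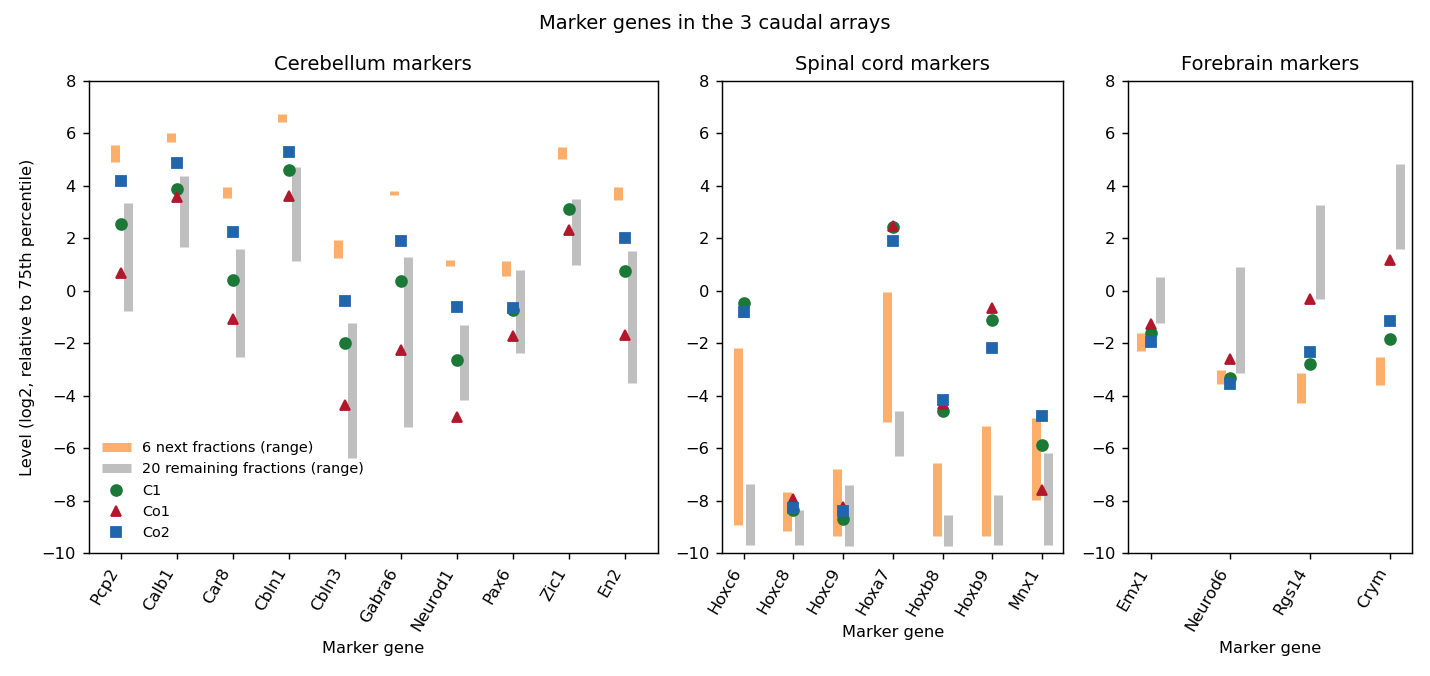
Levels of marker genes of the cerebellum, the spinal cord and (4 of the 5) the forebrain (log2, relative to the 75th percentile of each array) in C1, Co1 and Co2, with vertical bars for the range of the 6 next and of the 20 remaining coronal fractions. All 10 cerebellar markers lay below the next fractions in each caudal array that measured them (Zic1 had no usable spot on Co2), and Crym read 1.19 in Co1 but -1.83 in C1.

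Hox genes gave the largest differences. Probes existed for 37 of the 39 genes, and 27 were bright enough to test. Hoxb8 was among the 27 through the caudal arrays alone. Against the 26 other fractions 21 of the 27 were higher and 0 were lower (background 11.0% and 6.42%), with a median difference of 4.59. In 15 of the 21 all 3 caudal arrays lay above all 26 others, which held for 3.22% of all genes. The count fell to 12 without C1, to 12 without Co1 and to 16 without Co2, while the median stayed between 4.47 and 4.77. When slide was added as a fixed term, 9 were higher and the median was 1.27. That fit sets the caudal slabs only against those on their own slides, C2 to C4, Co3 and Co4.

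The Hoxb cluster held the largest of these differences. Hoxb7 read 3.94 in C1, 3.50 in Co1 and 2.95 in Co2, whereas the 26 other fractions ran from -9.41 to 1.00 with a median of -7.73. No other fraction reached the caudal 3, and the brightest of them was the adjacent C2. The fitted difference was 10.60 ± 1.52 (SE, adjusted p = 5.9e-05). Hoxb6 read 4.71, 4.33 and 4.03 against -6.79 to 2.99 (median -5.58), again without overlap, a difference of 9.02 ± 1.60 (adjusted p = 0.00051). Hoxb9 was confined more closely. It read -1.13, -0.65 and -2.18, and of the 26 other fractions only C2, at -5.15, was well above background. Its difference was 7.55 ± 0.51. Hoxb8 read -4.58, -4.32 and -4.16 and was not well above background on any other coronal array, so it was at least 15.4-fold higher than the rest. Its second probe gave a smaller difference, 2.83.

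Some genes of lower number stayed high over more of the slabs directly ahead. Hoxb2, a gene of rhombomere identity, read 1.57, 1.54 and 1.37 in the 3 arrays, and its levels in C2, C3 and C4 were 0.45, -0.20 and -1.37. Hoxb5 read 3.15, 2.59 and 3.04, with 2.63, 0.97 and -3.59 in C2, C3 and C4, and here C2 and Co3 lay above Co1. Hoxb7 by contrast dropped to 1.00, -3.92 and -6.62 over the same slabs. In the Co brain Hoxb7 read 0.56, -4.42 and -7.08 in Co3, Co4 and Co5, nearly the same profile in another animal.

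**Figure D2:**
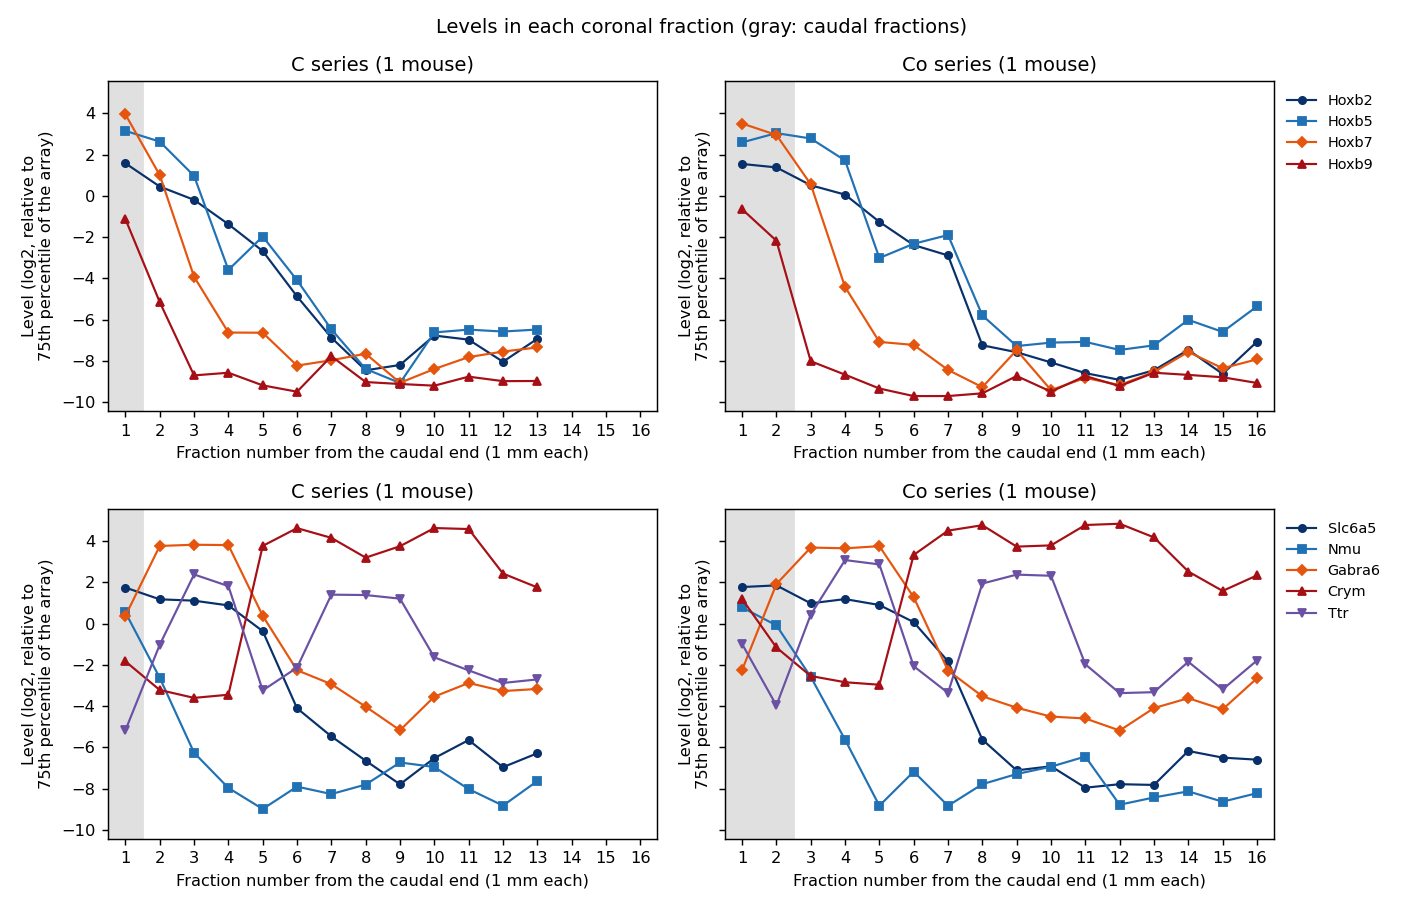
Levels (log2, relative to the 75th percentile of each array) of Hoxb genes and of genes for other compartments in every fraction of the C and Co brains, numbered from the caudal end in steps of 1 mm, with the caudal fractions shaded. Hoxb9 fell away after the shaded fractions (-5.15 in C2), Hoxb7 a fraction later and Hoxb2 several fractions later.

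Pooled over the clusters, a similar order held for medians of the difference from the 6 next fractions. There 10 of 23 Hox genes were higher (background 28.3%) and 1 was lower, with a median of 1.79. Single genes departed from the order, as Hoxa9 (1.44) and Hoxa6 (1.78) lay below Hoxa5 (3.11). Of the 22 Hox genes well above background on all caudal arrays, the 7 of paralog groups 1 to 3 differed from the next fractions by a median of 0.97, the 7 of groups 4 and 5 by 2.69 and the 8 of groups 6 to 9 by 4.94. In groups 6 to 9, 7 of 8 tested genes were called, in groups 4 and 5 none of 7 higher, and in groups 1 to 3 only 3 of 7. Across these 22 genes the paralog group and the difference correlated with Spearman's rho = 0.72 (Pearson's r = 0.70), a description across genes that share the same 9 arrays. The genes were kept for being well above background on the caudal arrays, so Hoxc8, Hoxc9 and Hoxd9 did not enter. The relation is therefore no test of the order. The forward reach, counted as the unbroken run of fractions well above background, followed the group only weakly, with rho = -0.33 in C and -0.16 in Co, and median reaches of 6, 3 and 3 fractions in C and 7, 7 and 6 in Co. Hoxa3, Hoxb3, Hoxc4 and Hoxa7 were well above background on every coronal array, and Hoxb6 on every array of C. Their reach was therefore the whole series and could not show where their levels fell, as for Hoxa7, which fell to -6.31. None of the 11 genes of groups 10 to 13 was well above background on all 3 caudal arrays. The count of 10 became 3 without C1, 7 without Co1 and 9 without Co2. Hoxb7 (6.97) and Hoxc6 (4.95) lost the call without any 1 of the 3 arrays, at 6.86 to 7.13 and 4.86 to 4.98, and Hoxa7 (5.14) lost it without C1, at 5.07. Hoxb9 (6.91) kept it without each of the 3. Hoxb8 (4.01) kept it too, but it was tested only because it was well above background on the caudal arrays. Its call is therefore no support for the order.

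**Figure D3:**
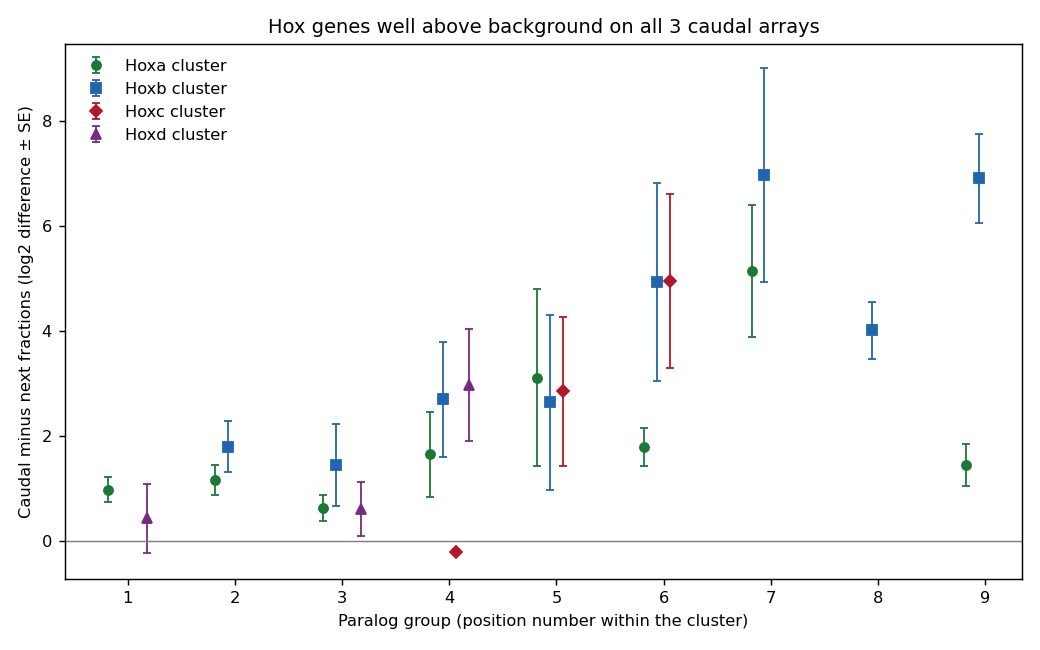
Difference between the 3 caudal and the 6 next fractions (log2, ± SE) for the 22 Hox genes well above background on all caudal arrays, by paralog group and cluster. The medians rose from 0.97 in groups 1 to 3 to 4.94 in groups 6 to 9. Hoxc4 alone lay below 0 (-0.21), at a probe that varied little over all coronal fractions.

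Genes of the other clusters were called higher than the rest too. In the Hoxa cluster, Hoxa7 read 2.42, 2.48 and 1.90 against -6.31 to -0.04 in the rest, a difference of 6.91 ± 0.84. Hoxa5 read 0.65, -0.27 and 0.25, and C2 at -0.19 lay just above Co1. Hoxa2, which patterns the second arch and the anterior hindbrain, read -1.40, -1.99 and -1.70, all above the highest other value of -2.30 in C2. Hoxa3 differed by only 0.62 at the probe used (adjusted p = 0.0077), but by 4.51 at its other probe, and without Co1 the former was 0.24 and not called. In the Hoxc cluster, Hoxc6 read -0.45, -0.80 and -0.81 against a highest other value of -2.19, and Hoxc5 -0.82, -1.72 and -1.31 against -1.82. Both sets had no overlap with the rest. Hoxc4 did not differ from the rest (-0.01, adjusted p = 0.95) and was the gene called lower than the next fractions (-0.21, lost without C1 at -0.20). Its only probe was well above background on every coronal array and varied little, from -4.56 to -3.60 over the rest. These values thus describe that probe and may not hold for the gene. Hoxc8 and Hoxc9 were not well above background on the caudal arrays. In the Hoxd cluster, Hoxd4 read -1.96, -1.41 and -0.57 and exceeded the rest by 6.35 ± 1.23. Against the rest, Hoxa2 (5.14) and Hoxb2 (6.90) lost the call without any 1 caudal array, at 4.99 to 5.28 and 6.80 to 7.03. Hoxb5 (7.47) and Hoxa4 (5.49) lost it without C1, at 7.29 and 5.59, and without Co1, at 7.67 and 5.55.

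Sequences before the start of 3 genes called higher than the rest are shown because each window holds the letters TGATNNAT, the core of sites that PBX and HOX proteins can bind together. They cover 250 bases before the RefSeq start in GRCm38.p6, 5′ to 3′ on the strand of the gene, with the matches on either strand in capitals. The Hoxb8 window lies at chr11:96281655-96281904 on the plus strand, the Hoxa2 window at chr6:52164832-52165081 on the minus strand and the window of Slc6a5, the neuronal glycine transporter, at chr7:49910049-49910298 on the plus strand, where 2 matches overlap. A second Slc6a5 start had no match.
Hoxb8: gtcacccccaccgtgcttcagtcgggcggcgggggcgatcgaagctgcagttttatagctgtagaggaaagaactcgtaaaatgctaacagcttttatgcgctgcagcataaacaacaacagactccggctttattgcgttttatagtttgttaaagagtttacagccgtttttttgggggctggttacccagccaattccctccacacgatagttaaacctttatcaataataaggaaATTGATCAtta
Hoxa2: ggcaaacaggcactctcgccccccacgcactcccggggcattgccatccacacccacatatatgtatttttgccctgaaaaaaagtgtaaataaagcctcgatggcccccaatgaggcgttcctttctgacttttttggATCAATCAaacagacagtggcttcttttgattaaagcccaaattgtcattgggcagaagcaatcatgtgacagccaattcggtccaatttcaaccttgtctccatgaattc
Slc6a5: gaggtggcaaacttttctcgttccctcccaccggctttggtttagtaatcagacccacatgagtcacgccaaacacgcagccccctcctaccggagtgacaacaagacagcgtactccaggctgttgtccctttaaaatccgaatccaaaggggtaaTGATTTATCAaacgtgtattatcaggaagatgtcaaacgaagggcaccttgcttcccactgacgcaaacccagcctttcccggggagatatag
A window was listed for 11 of the 21 Hox genes called higher, and 2 of these 11 windows (18.2%) held the letters. The share was 7.68% of all 32851 windows, 5.22% of windows of the genes tested and 5.74% of windows of genes called higher. A match is a run of letters and says nothing about binding, and at such counts the shares do not separate the groups.

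Most neuropeptide genes of the brainstem lay above the neighboring slabs. Of 24 peptide genes of the brainstem 19 were higher than in the next fractions and 0 lower (background 28.3%), with a median of 1.16, and 13 to 20 remained higher when any 1 caudal array was left out. Against the 26 others 6 of 24 were higher (background 11.0%), 4 without C1, 3 without Co1 and 7 without Co2. Nmu, which encodes neuromedin U, read 0.54, 0.78 and -0.09, far above the rest (-8.99 to -2.58, median -7.85), by 7.79 ± 0.96. Tac2, the precursor of neurokinin B, read 2.08, 2.19 and 1.58, above the next fractions (-3.73 to -1.24) and above the 20 remaining ones (-1.70 to 0.65). Against the next fractions it was higher by 4.71 ± 0.69 (adjusted p = 0.0018). Nmu lost that call without C1 (6.02) and without Co1 (5.87).

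Several other peptides of the dorsal medulla and spinal dorsal horn were also far above the slabs directly ahead. Nts, the gene for neurotensin, read 2.98, 3.16 and 2.07 against -0.90 to 0.38 in the next fractions, 3.09 ± 0.40 higher. Grp, which encodes the itch-related gastrin-releasing peptide, read 2.23, 2.34 and 1.34 against -1.88 to -0.36, 3.02 ± 0.41 higher. For both the groups did not overlap, but the remaining fractions reached 2.26 for Nts and 2.52 for Grp. Npff, a modulator of opioid signaling, read 0.82, 1.14 and 0.02 and lay above all 26 others (-2.25 to -0.56), by 2.38 ± 0.27. Pdyn, Tac1 and Sst, genes of the dynorphin, substance P and somatostatin precursors, were higher than in the next fractions by 2.41, 2.03 and 1.83 and were not called against the rest. Calca, which encodes CGRP, read 1.12, 2.96 and 1.67 and was highest in Co1. Uts2, the gene of urotensin II, a peptide of motor neurons, read -0.81, -0.06 and 0.36, differed from the rest by 5.80 ± 1.78 (adjusted p = 0.028) and overlapped with C2 at -0.43. It lost the call when any 1 array was left out, at 5.46 to 6.33.

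Several genes of glycine transmission were higher at the caudal end. Of 12 genes of glycine transmission 6 were higher than in the next fractions and 1 lower (background 28.3% and 20.2%). Against the rest 4 were higher and 1 lower (background 11.0% and 6.42%). The count of 4 fell to 1 without any 1 array. Slc6a5 read 1.74, 1.77 and 1.85, above the next fractions at 0.88 to 1.18 and far above a median of -5.91 over the rest. The difference from the next fractions was small but tight, 0.75 ± 0.09 (adjusted p = 0.0011), and that from the rest was 5.99 ± 2.06 (adjusted p = 0.048), lost without any 1 array at 5.88 to 6.18. Glra1, the adult alpha subunit of the glycine receptor, read -0.34, -1.19 and -0.19 against -2.78 to -1.76 in the next fractions, 1.82 ± 0.24 higher, and none of the other 26 reached it. Glra3 was well above background on all 3 caudal arrays and on none of the next, at least 4.67-fold higher. Slc6a9, the glial transporter, was higher than the rest by 1.2, lost without any 1 array at 1.12 to 1.25. Gldc, which cleaves glycine in mitochondria, went the other way, at -1.65, -1.80 and -0.96 against -0.33 to 1.59, a difference of -1.86 ± 0.34.

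Vesicular glutamate transporters parted company. Slc17a7, the VGLUT1 gene of cortical and cerebellar granule neurons, read -3.69, -2.09 and -1.89 against -0.14 to 2.55 in the 26 others, the lowest 3 values of the series. It differed by -3.74 ± 0.48, or 13.3-fold, and kept the call without each array. Slc17a6, the VGLUT2 gene of brainstem neurons, read 2.95, 2.75 and 2.39 and was above the next fractions by 0.86 ± 0.13, and Slc17a8, the VGLUT3 gene, was above them by 0.85. Of the 14 transmitter genes 5 were higher and 3 lower than in the next fractions, and 1 was higher and 1 lower against the rest, shares close to or below the background (28.3% and 20.2%, and 11.0% and 6.42%). The 1 higher was lost without any 1 array. Gad1 and Gad2, which make GABA, differed from the next fractions by -0.69 and -0.37, for Gad2 lost without C1 at -0.22. Slc6a3, the dopamine transporter gene, was 2.33 higher than in the next fractions, at -3.14, -1.50 and -3.35 against -5.32 to -4.65, yet well below its highest coronal value of 4.25.

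Transcription factors of hindbrain and cord were higher in 12 of 41 cases against the rest and lower in 0 (background 11.0% and 6.42%). Their median was 0.83. The count was 3 or 4 without any 1 caudal array. Tlx3, a selector of glutamatergic neurons in the dorsal horn and medulla, differed by 4.97 ± 1.66 (adjusted p = 0.042), at -2.58, -2.15 and -1.75, with its highest value of -1.32 in a next fraction. Pax8 and Evx1, factors of spinal and hindbrain interneurons, differed by 4.13 and 3.84, and for Pax8 all 3 arrays lay above the rest. Phox2a, a factor of visceral motor and noradrenergic neurons, differed by 2.47. Tlx3, Evx1 and Phox2a lost the call without any 1 array, at 4.79 to 5.14, 3.76 to 3.98 and 2.31 to 2.79, and Pax8 without C1 and without Co1, at 4.04 and 4.19. Lmx1b, needed for serotonergic neurons, was well above background in 2 of the 3 and in none of the next fractions. Against the next fractions 7 of 40 were higher and 10 lower, against a background of 28.3% and 20.2%. Those lower included the cerebellar factors En2 (-3.27) and Lhx1 (-1.79), while Olig3 (1.33, lost without C1 at 1.24) and Sall3 (1.95) were among those higher. Dmrt2 read -3.40, -3.69 and -4.48 and was not well above background on any next array, at least 16.6-fold higher, although the remaining fractions reached -3.13.

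Genes of motor neurons, monoamine neurons and large axons were next examined. Of all genes tested, 11.0% were higher and 6.42% lower than the rest, and 28.3% and 20.2% against the next fractions. Counts of higher serotonin and large axon genes lay close to or below these shares. Of 17 cholinergic and motor neuron genes 7 were higher than the rest and 0 lower, with a median of 1.34, but only 2 without any 1 caudal array. Mmp9 differed by 1.34 and Ache, the acetylcholinesterase gene, by 0.90, lost without any 1 array at 0.83 to 0.98. Of 12 noradrenaline and adrenaline genes 2 were higher than the rest, none of them without C1 or Co1, and Dbh, which makes noradrenaline, differed from the next fractions by -1.78, lost without any 1 array at -1.57 to -1.89. Of 11 serotonin genes 1 was higher than the rest and 3 were higher than in the next fractions. Among 18 neurofilament and large axon genes 2 were higher than the rest, with a median of 0.98, a count of 1 without C1, 0 without Co1 and 1 without Co2, and 4 were higher and 6 lower against the next fractions. Nefl, the light neurofilament gene, read 6.04, 6.35 and 6.16, above every other fraction (3.65 to 5.83), by 1.32 ± 0.37, lost without C1 at 1.35 and without Co1 at 1.26. Pvalb, the parvalbumin gene that Purkinje cells express strongly, differed from the next fractions by -1.08. Genes of the dorsal vagal complex were higher in 2 of 10 cases and those of the inferior olive in 2 of 5 with 1 lower against the rest. The dorsal vagal count was 1 without C1 or Co1, and the olivary counts were 1 and 0 without C1 and 0 and 0 without Co1. Against the next fractions the dorsal vagal genes were higher in 1 of 10 and lower in 2, and the olivary genes were lower in 2 of 5.

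Myelin genes were raised as a block against the neighboring slabs. All 21 oligodendrocyte and myelin genes were higher than in the next fractions (background 28.3%), with a median of 0.63. All 21 remained so without any 1 caudal array. Against the rest 16 of 21 were higher (background 11.0%), with a median of 1.21. That count was 2 without C1, 0 without Co1 and 8 without Co2, with medians from 1.15 to 1.31. Mog, a protein of the outermost myelin lamella, read 2.07, 1.77 and 1.48 against -1.60 to 1.19, higher by 1.77 ± 0.47 (adjusted p = 0.011). Hapln2, at nodes of Ranvier, read 0.91, 0.78 and 0.76 against -3.07 to 0.31, higher by 1.88 ± 0.54. Neither overlapped with any other coronal fraction. Mbp, a major myelin protein, differed by 0.90. These 3 calls were lost without C1 and without Co1, where the differences were 1.82 and 1.67 for Mog, 1.94 and 1.85 for Hapln2 and 0.87 and 0.85 for Mbp. Those of Hapln2 and Mbp were also lost without Co2, at 1.86 and 0.99.

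Among astrocyte genes 10 of 17 were higher and 2 lower than the rest (background 11.0% and 6.42%). The count of higher genes was 4 without C1, 3 without Co1 and 6 without Co2. Against the next fractions 10 were higher and 3 lower (background 28.3% and 20.2%). Gfap, the filament of fibrous astrocytes, read 0.93, 0.44 and 0.29, above all others (-3.08 to -0.04), by 2.36 ± 0.37. Agt, Itih3 and Slc7a10 also lay above every other fraction, although Agt was not called (1.91, adjusted p = 0.064). Slc1a3, the glutamate transporter strongest in Bergmann glia, was lower, at -0.87, as was Mfge8, at -1.22. The call was lost without C1 for Slc1a3 (-0.72) and Mfge8 (-1.07), and without Co1 for Slc1a3 (-0.67) and Itih3 (1.59). All 14 microglial genes were higher than in the next fractions, with a median of 0.86, and 0 of 14 were called against the rest, with a median of 0.07. Tmem119, a gene particular to microglia among brain cells, read 1.27, 1.52 and 1.01 against 0.13 to 0.49 in the next fractions, with the remaining fractions reaching 2.00.

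Cerebellar genes set the caudal slabs off from the slabs ahead of them. All 19 granule cell genes were lower than in the next fractions (background 20.2%), with a median of -1.86, and all 19 stayed lower without any 1 array. Of 23 Purkinje cell genes 21 were lower and 1 higher, with a median of -1.42, and of 9 Bergmann glia and interneuron genes 6 were lower. Against the 26 others 0 granule genes were higher and 2 lower, 2 Purkinje genes higher and 1 lower, and 1 Bergmann gene lower. The background there was 11.0% higher and 6.42% lower. When slide was added as a fixed term, 17 granule genes and 14 Purkinje genes were lower. That fit sets the caudal slabs only against next fractions on their own slides. Without Co1 the counts against the 26 others were 1 granule gene lower, 1 Purkinje gene higher and 0 Bergmann genes. Gabra6, a GABA receptor subunit of granule cells, read 0.37 in C1, -2.25 in Co1 and 1.91 in Co2 against 3.64 to 3.82 in the next fractions, lower by a difference of -3.69 ± 0.78. The 3 values were all below the next fractions and spread widely, with Co1 lowest. Neurod1, a granule neuron factor, showed the same order at -2.63, -4.82 and -0.61. Car8 and Ppp1r17, genes of Purkinje cells, differed from the next fractions by -3.20 and -2.87 and were lowest in Co1 too. Gabrd and Tiam1 were the granule genes that were also lower than the rest, by -1.67 and -1.65, for Gabrd lost without C1 at -1.36 and without Co1 at -1.47. Ebf2 was the exception among the Purkinje genes, at 0.50, 0.33 and -0.02, above every other fraction and 1.40 ± 0.21 above the next.

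Choroid plexus genes fell in the same direction. Of 17 tested, 12 were lower than in the next fractions and 0 higher (background 20.2% and 28.3%), with a median of -2.75. The count was 5 without C1, 8 without Co1 and 6 without Co2. Ttr, the thyroxine carrier secreted by the choroid plexus, read -5.17, -0.99 and -3.97 against -1.03 to 3.07 in the next fractions, where Co1 just overlapped the lowest. The difference was -5.22 ± 1.07, and it lost the call without C1, at -4.60. Kcne2, a channel subunit of the same epithelium, read -5.60, -1.87 and -4.97 against -1.36 to 2.69. Tmem72 was not well above background on any caudal array and was at least 10.7-fold lower than in the next fractions. Ependymal cilia genes were called lower in 1 of 10 cases against the next fractions, and neither they nor the choroid genes were called against the rest. Other genes far below the next fractions were Il20rb (-4.12), Wscd2 (-3.78), Sycp1 (-3.81, lost without C1 at -4.20) and the prolactin family genes Prl2c5 (-4.19) and Prl2c3 (-3.75), whose near-identical copies the probes may not separate.

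Forebrain genes lay lower at the caudal end but were seldom called against the rest. Of 33 tested 1 was higher and 1 lower (background 11.0% and 6.42%), with a median of -1.52, and 0 of either without C1 or without Co1. The 10 genes with the largest significant losses were led by Slc17a7 and held activity-dependent genes. Egr4 read -1.09, 0.23 and -0.08 against 0.54 to 4.49, the 3 lowest values of the coronal series, and differed by -3.46 ± 0.74 (adjusted p = 0.0025) with or without each array. Npas4, another immediate early gene, read -5.83, -3.83 and -3.67 against -4.38 to 0.64 and differed by -2.98 ± 0.81, lost without C1 at -2.32 and without Co1 at -3.23. Rasgrp1, an activator of Ras, read -0.90, 0.66 and 0.24 against 0.40 to 4.44 and differed by -3.19, lost without C1 at -2.77 and without Co1 at -3.48. In both genes the lowest other fractions overlapped the caudal 3.

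The remaining 6 of these genes each lost the call in at least 1 of the alternatives. Asb11 differed by -3.58, lost without C1 at -2.59. Clec18a differed by -2.99, lost without C1 at -2.0 and without Co2 at -2.87. Cplx3, a complexin of ribbon and cortical synapses, differed by -3.08, lost without any 1 array at -2.60 to -3.81, and its other probe gave -0.21. Dkkl1 differed by -3.67 and lost the call without any 1 array, at -3.30 to -4.16. Against the next fractions Dkkl1 and Cplx3 differed by only 0.09 and -0.08, and Asb11 (-1.38), Clec18a (-1.33) and Npas4 (-0.87) were not called. Slc17a7 (-2.65), Egr4 (-1.35) and Rasgrp1 (-0.80) were called lower than the next fractions too. Chrm1, the M1 muscarinic receptor gene, was not well above background on any caudal or next array. It was at least 8.17-fold lower than the rest, a call lost without any 1 array. Plekhs1 was likewise not well above background on the caudal arrays at the probe used, but its other probe gave a difference of 0.48, so no direction is given. Against the next fractions 7 of 32 forebrain genes were higher and 4 lower, both below the background of 28.3% and 20.2%. Those higher included Crym (2.33), Rgs14 (1.87) and Camk2a (1.33), which were highest in Co1 of the 3, whereas Lamp5 read 3.54, 4.08 and 3.30 and lay above all 26 others (1.66 to 3.28).

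Vascular, meningeal and peripheral genes were followed because roots, meninges and blood may enter a slab at the edge of the brain. The shares over all genes were 11.0% higher and 6.42% lower than the rest, and 28.3% and 20.2% against the next fractions. The endothelial counts lay close to or below them. Of 19 meningeal fibroblast genes 12 were higher than in the next fractions, with 5 without C1, 9 without Co1 and 8 without Co2, and 3 were higher than the rest, 0 without C1, 0 without Co1 and 2 without Co2. Aldh1a2, which makes retinoic acid in the meninges, read 2.86, 2.51 and 2.35 against 0.24 to 1.53 in the next fractions, higher by 1.83 ± 0.34. Of 14 endothelial genes 2 were higher in either comparison, and against the rest 0 without any 1 array. Of 3 red blood cell genes 1 was higher in either, Alas2, at -1.19, -2.02 and -3.16, whose difference from the next fractions of 0.85 was lost without C1 at 0.64 and without Co1 at 0.63, and the summed red blood cell markers fell from 11.1 in C1 and 9.46 in Co1 to 4.24 in Co2. Of 13 skeletal muscle genes 4 were higher than the rest, none without Co1, and 6 were higher and 2 lower than in the next fractions. Myh4, a fast muscle myosin gene, read -4.22, -2.45 and -4.52 and was brightest in Co1. Of Schwann cell genes 1 of 7 was higher than the rest and 1 of 6 than the next fractions, and of sensory ganglion genes 2 of 8 and 1 of 7. Without Co1 none of the Schwann cell genes was higher than the rest and none of the sensory ganglion genes was higher in either comparison. The part of these tissues in the results above was not tested.

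Genes of retinoic acid handling, which regulates Hox genes in the embryo, were higher in 4 of 18 cases against the rest (background 11.0%). That count was 1 without C1, 1 without Co1 and 2 without Co2. Against the next fractions 9 were higher and 2 lower (background 28.3% and 20.2%). Cyp26a1, which degrades retinoic acid, read -3.98, -3.92 and -5.63 and was not well above background on any next array, at least 11.1-fold higher. Crabp1, a retinoic acid binding protein, read -1.75, -1.12 and -1.90 against -5.74 to -3.22, higher by 2.66 ± 0.47. Both groups were free of overlap with the next fractions, though Cyp26a1 reached -3.58 in a remaining fraction. Rbp4 read 3.77, 3.72 and 3.93, above all other fractions (0.14 to 3.27).

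**Figure D4:**
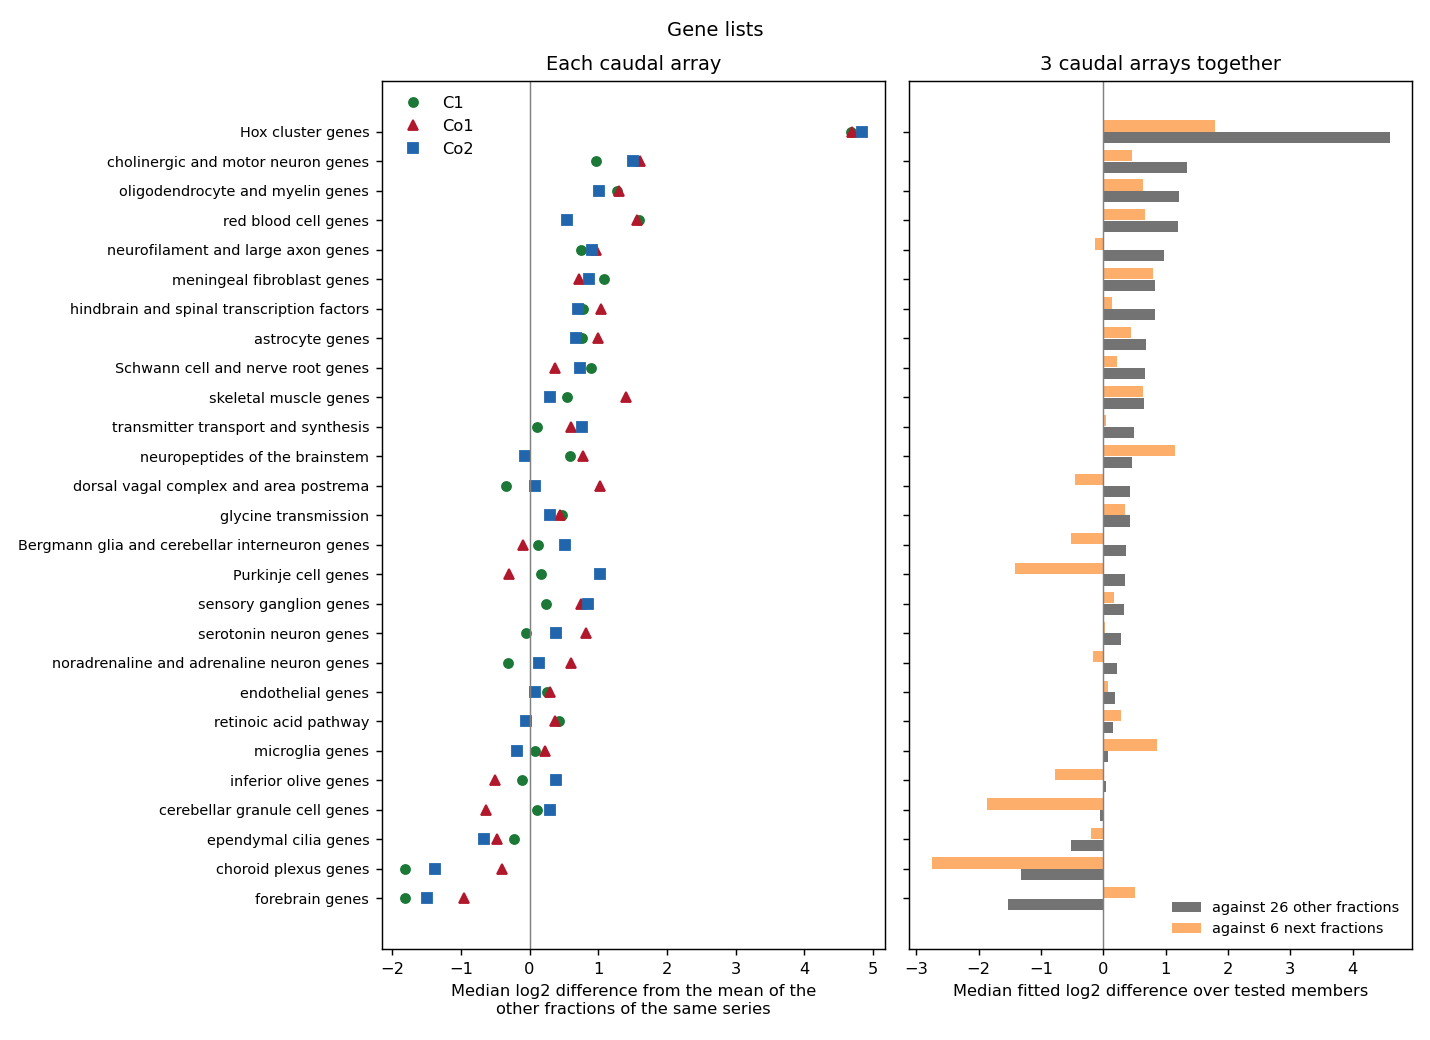
Median log2 difference of each gene list, on the left for C1, Co1 and Co2 against the mean of the other fractions of the same series and on the right for the 3 together against the 26 other and the 6 next fractions. Hox genes had the highest medians (4.59 and 1.79), granule cell genes lay near 0 against all others (-0.05) and low against the next (-1.86).

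The 4 brains cut in other planes gave the position of the same genes in independent animals. Of the 21 Hox genes called higher, 15 had their highest horizontal level in H4 and 6 in H5, and 13 peaked in Ho6 and 5 in Ho5. In the sagittal series 11 peaked in S5 and 7 in S6, and in the So brain 9 peaked in So8 and 6 in So7. H4 held the peak of 8.78% and S5 of 8.51% of all genes tested, so the Hox genes gathered in few slabs. Of the 10 named genes lower at the caudal end, 9 peaked in H1 and 8 in Ho1, which held the peaks of 23.5% and 32.0% of all genes tested. Fractions of 4 brains were described here without a test.

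**Figure D5:**
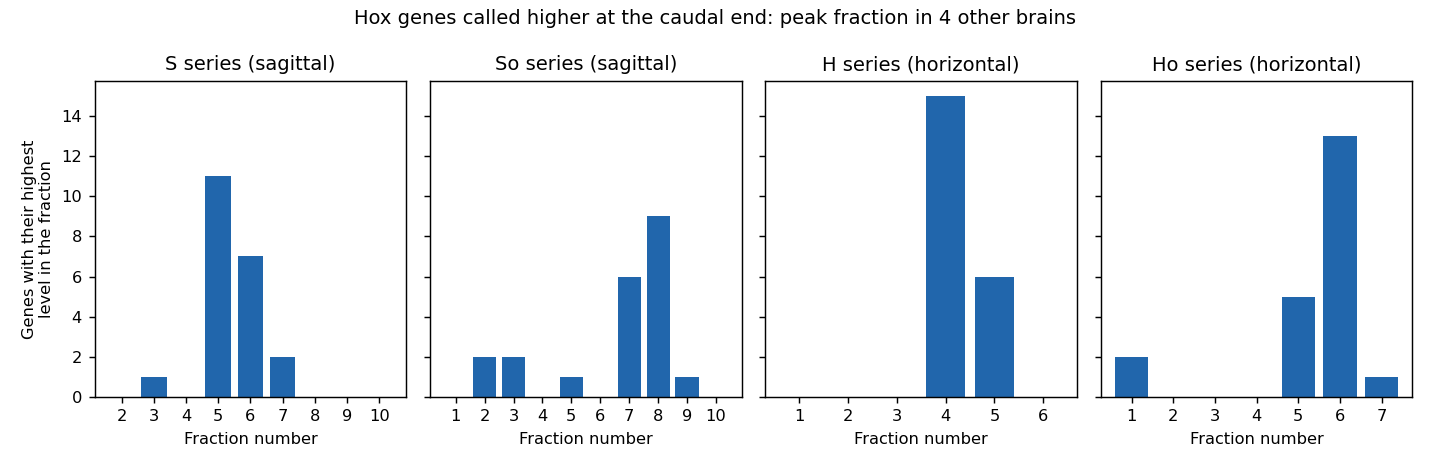
Number of the 21 Hox genes called higher at the caudal end whose highest level fell in each fraction of the S, So, H and Ho brains. The genes gathered in H4 (15), Ho6 (13), S5 (11) and So8 (9).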

How the data were processed

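RNA of each fraction was labeled with one dye and hybridized to Agilent whole-genome arrays. The authors scanned and extracted them with Agilent Feature Extraction 9.1 (submitters' processing notes), and the deposited values used are processed signal intensities, background-corrected and not normalized between arrays. A deposited table of intensities that the authors normalized per array, with 36558 probes, served as an alternative after log2 was taken. Outlier and control spots were dropped, spots of a probe were averaged, each array was scaled to its 75th percentile and log2 was taken. Of 41174 probes, 22951 were named through an accession (16358 symbols). Probes not well above background on any array of a fit were not tested, so some genes were tested through the caudal arrays alone. Tests used limma 3.58.1 in R 4.3.3 (lmFit, eBayes, Benjamini-Hochberg), with the series as a block. A gene was represented by its brightest probe. Genes dim in a whole group are given as bounds, the mean of the bright group over the lowest well-above-background signal of the dim arrays. Named genes were the 15 higher and 10 lower with the largest differences from the rest, 8 each way against the next fractions, 6 each way in Co1, and list members needed for a count. Members and lists were chosen with earlier results of these data known. Leaving out each caudal array, slide blocks, other scalings, filters and probes were tried. The fit was checked on simulated data, where 52.5% of 200 probes changed by 1 and 87% of those changed by 2 on the log2 scale were recovered against the rest (34857 probes). The simulated slabs were independent of each other, unlike real slabs that share a brain or a slide, so these shares need not hold for the data. Array number limits the precision. The genome build of the probe design is not given in the sources used here. Some listed genes are not reported here.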

Additional observations from a re-analysis of the deposited data

Results flagged for a closer look

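In the 6 next fractions, 11 of 152 genes examined had a single fraction apart from the other 5. Chance gives about 1 in 20 among replicates. These fractions are ordered positions in 2 brains, so that rate need not hold here. Among genes described above, Hoxb9 read -5.15 in C2, with the next highest at -8.01, Hoxa3 read -2.79 in Co5, with the next lowest at -2.42, Nefl read 5.83 in Co5, next to 5.61, and Slc17a6 read 2.34 in C4, next to 1.95. Scn10a read -5.55 in C4, next to -5.73, Olfr1014 read -4.57 in C3, next to -7.57, Apoa4 read -8.56 in C4, next to -7.17, and Pag1 read -6.28 in Co5, next to -5.84. Chrm1 read -7.70 in Co3, next to -8.26, Fezf2 read -7.80 in Co3, next to -8.48, and Cypt4 read -7.89 in Co3, next to -8.45, and these 3 were not well above background on any next array.

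The difference between the caudal and the other fractions differed between the Co and C brains for 10 of 15081 genes (adjusted p under 0.05 in limma, 1 higher and 9 lower in Co). These were Siglece (-4.52), Krt33a (-3.79), Nol9 (-3.49), Stag3 (-3.35), Olfr818 (-3.31), Krtap19-9b (-3.09), Cypt4 (-2.66), Ssb (-2.17), Gtpbp10 (-1.23) and Pag1 (1.82). Siglece, Krt33a, Olfr818, Krtap19-9b and Cypt4 were well above background on C1 alone of the 29 coronal arrays, so the difference in these 5 rests on that array.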

How the results depend on the processing

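Counts of probes moved with the samples used. Against the rest 3144 probes were higher and 2209 lower. Higher probes numbered 709 to 2489 with 1 caudal array left out, 132 in C alone, 961 in Co alone, 5689 without the next fractions, 5404 without the rostral end and 1093 at adjusted p under 0.01. Lower probes numbered 496 to 1643, 46, 741, 4562, 3766 and 895 under the same settings, and 3856 and 4675 with the slide as a random or fixed block. Without the series as a block, 2152 were higher and 1395 lower. Against the next fractions 3885 were then higher and 4495 lower, where the fit with the block gave 7004 and 7435. Against the next fractions 4283 to 8300 were higher and 5204 to 7898 lower with 1 caudal array left out, 4046 and 4954 in C alone, 3755 and 4386 by the methods' t-test after adjustment (3462 and 4038 at unadjusted p under 0.01), and 3795 and 4727 at adjusted p under 0.01. In Co alone limma called 0 either way, with 10859 probes at unadjusted p under 0.05. The difference between Co and C was higher for 14 probes, for 106 without Co1 and for 142 without Co2. Scaling to the median gave 2458 higher and 2528 lower against the rest, the authors' normalization 2525 and 2486, and quantile normalization 2839 and 2479. Among list counts, Hox genes higher than the rest ranged from 12 to 16 and myelin genes from 0 to 8 with an array left out, and choroid plexus genes lower than the next from 5 to 8. Dkkl1 turned to 0.080 with the slide as a fixed block and Plekhs1 to 0.48 at its other probe. Of the other values of the named genes 328 against the rest and 217 against the next fractions kept direction and call, and 124 and 42 kept direction only. The causes were not tested. Signal over background limited the dim genes, for which only bounds are given.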
